A study of Mus musculus with 12 samples.

Results

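Double-negative (DN) T cells of the mouse Peyer's patch were compared with CD4 T cells of the same tissue across the transcriptome. The members are 20208 of the 23473 probes of a mouse oligonucleotide array, those detected on all 3 arrays of DN or on all 3 arrays of CD4, which stand for 16837 of 19321 gene symbols, and the samples are 6 of the 12 arrays of the series. Cells of C57BL/6 mice aged 10 weeks, male and female, were pooled from 3 to 5 mice and sorted with antibodies to CD8β, CD4, TCRβ and γδTCR. DN cells were gated as γδTCR-, TCRβ+, CD4- and CD8β-, and CD4 cells as γδTCR-, TCRβ+ and CD4+; for CD4 cells the design text names CD8β without a sign. No antibody to CD8α was used, so that DN cells may carry the CD8αα homodimer. All mice were of this strain with no treatment stated, and every array was hybridised with RNA of pooled animals. The submitters state a purity above 98% for each fraction. The title of the series concerns DN cells as antigen-presenting cells, and the comparison asks how their transcriptome differs from that of CD4 cells.

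Peyer's patches are clusters of lymphoid follicles along the small intestine, where antigen sampled from the gut lumen meets B and T cells. CD4 T cells there include follicular helper cells, which help B cells in germinal centres through CD40L and cytokines, and regulatory T cells, which restrain responses. T cells that carry TCRβ but neither CD4 nor CD8αβ are known from the gut epithelium, where many express CD8αα, receptors first described on natural killer cells, granzymes, and the integrin αE that binds E-cadherin.

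Signals are given as log2 of the background-corrected and normalised spot intensity, and a difference is always DN minus CD4 on that scale, with its standard error (SE, 3 arrays a fraction) after ±. A gene is called higher or lower where limma's moderated test passed an adjusted p of 0.05 (Benjamini-Hochberg over all probes tested). Between 19589 and 21394 probes were detected on each of the 6 arrays, with a median spot of 72.7 to 77.9 intensity units and blank spots that averaged 58.6 to 62.2. Levels of different probes were not compared with each other, and the number of arrays limits the precision. Replicate 1 of both fractions was run in another array series than replicates 2 and 3. The SD of the log2 difference between 2 arrays was 0.0812 for DN 2 and DN 3 and 0.109 for CD4 2 and CD4 3, against 0.359 to 0.372 between replicate 1 and either of the others in the same fraction. The labels state that RNA was collected 3 times but not that each collection used other mice; the p-values therefore reflect only how these arrays vary, which may be technical. In a mixed sample, fewer cells of a type and less RNA per cell cannot be told apart.

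The sort genes were read first. Cd4, the gated coreceptor, stood at 6.16, 6.05 and 6.10 in DN 1 to 3 and at 8.76, 9.97 and 9.72 in CD4 1 to 3. The difference was -3.38 ± 0.33 (adjusted p = 0.00764). Cd8b1, which encodes the gated CD8β chain, gave 6.29, 6.26 and 6.28 on the arrays DN 1 to 3 and 8.26, 7.93 and 7.80 on CD4 1 to 3. DN was the lower fraction in both genes on every array, with a difference of -1.72 ± 0.12 (adjusted p = 0.00283) for Cd8b1. Cd8a, which encodes the CD8α chain, had log2 signals of 14.42, 14.35 and 14.22 in DN 1 to 3 and 7.75, 7.94 and 7.96 in CD4 1 to 3. Its difference was 6.44 ± 0.08 (adjusted p = 1.71e-05), and its second probe differed by 1.27 (adjusted p = 0.00709). Of the invariant chains of the T cell receptor complex, Cd3d, Cd3e and Cd3g differed by -0.47, 0.09 and 0.96 and did not pass the test (Cd3g had an adjusted p of 0.0418 with the replicate block), while Cd247, the ζ chain, was lower, at -0.93 ± 0.14 (adjusted p = 0.0255). Cd5, a brake on receptor signals, and Cd2, an adhesion receptor, were also lower, at -3.54 ± 0.37 (adjusted p = 0.0102) and -1.92 ± 0.18 (adjusted p = 0.00725). The adjusted p of Cd4 was 0.0553 and 0.0546 with DN 2 and DN 3 left out in turn, that of Cd2 0.0518 with DN 2 left out, that of Cd5 0.0639, 0.0624 and 0.0604 with DN 2, DN 3 and CD4 3 left out in turn, and that of Cd247 0.123, 0.116, 0.108 and 0.0689 with DN 2, DN 3, CD4 2 and CD4 3 left out in turn.

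Across the transcriptome, 1009 of 20208 probes (4.99%) differed by limma's test at adjusted p under 0.05, of which 544 (2.69%) were higher and 465 (2.3%) lower in DN. These probes stand for 867 of 16837 gene symbols tested (5.15%), with 462 genes higher (2.74%) and 405 lower (2.41%). Each list count given below is to be read beside these shares of all genes. In every probe called, the 3 DN values lay on 1 side of the 3 CD4 values, which holds for 24.6% of all probes tested. The difference was 1 or more in size for 360 of the 1009, with 239 above 1 and 121 below -1. These sizes depend on the offset and scale, since the median size over the probes called was 0.70 here and 1.53 on the value table deposited by the authors. Itgax, for example, differed by 2.61 here and by 5.70 there, and Il4 by -3.36 and -6.63. The median difference over all probes was -0.01. Of the probes called, 964 were detected on all arrays of both fractions, 33 met the detection rule in DN alone and 12 in CD4 alone, and passing through 1 fraction alone itself favours a difference. The call was kept for 882 of the 1009 with the replicate number as a block, where 1868 were called in all, and for 305 in each of 6 runs that left out a single array. With DN 2, DN 3, CD4 2 and CD4 3 left out in turn 347, 348, 393 and 392 probes were called, and 452 with all 12 arrays in the fit. When replicates 2 and 3 were averaged to 1 sample, 25 probes were called, among them those of Fcer1g, Klra6, Ccl5, Cd8a, Gzmb, Bcl11b, Izumo1r, Klra5, Trib2, Ccrl2, Klre1, Cd160 and Ski. Subtracting the local background left 20 calls. Of 905 calls on the deposited value table, 63.9% were higher in DN, against 53.9% here.

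Among the transcription factor genes, 14 of 402 were higher and 13 lower in DN (6.72% called, against 5.15% of all genes), with a median difference of -0.01. The factors higher in DN include some of B and myeloid cells. Irf8, an interferon regulatory factor of B, dendritic and myeloid cells, stood at 9.52, 10.33 and 10.30 in DN 1 to 3 and at 6.98, 6.77 and 6.74 in CD4 1 to 3. Bcl11a, a zinc finger factor needed for B cell development, gave 8.67, 9.24 and 9.49 on the arrays DN 1 to 3 and 6.18, 5.89 and 5.98 on CD4 1 to 3. The fractions did not overlap in either, DN 1 was the lowest DN array, and the differences were 3.22 ± 0.24 (adjusted p = 0.00342) and 3.12 ± 0.23 (adjusted p = 0.00303). Spi1, which encodes the lineage factor PU.1, differed by 1.03 ± 0.05 (adjusted p = 0.000749). On the same arrays the mean log2 signal of the 25 B cell markers was 8.20, 8.84 and 8.83 in DN 1 to 3 and 6.78, 6.71 and 6.74 in CD4 1 to 3. The part of B cell RNA in these differences was not tested.

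Further factors were higher in DN by differences that varied little between arrays. Nr4a2, an orphan nuclear receptor induced by antigen receptor signals, had log2 signals of 8.07, 7.997 and 7.84 in DN 1 to 3 and 5.85, 5.88 and 5.95 in CD4 1 to 3. Its DN values all lay well above its CD4 values, a difference of 2.08 ± 0.07 (adjusted p = 0.000291). Lyl1, a basic helix-loop-helix factor of early blood cells, stood at 7.69, 7.98 and 7.97 in DN 1 to 3 and at 6.13, 6.11 and 6.13 in CD4 1 to 3. The difference was 1.76 ± 0.09 (adjusted p = 0.000948), with no overlap between the fractions. The Notch pathway genes named here lay on both sides. Heyl, a repressor induced by Notch, gave 7.14, 7.47 and 7.43 on the arrays DN 1 to 3 and 5.77, 5.78 and 5.79 on CD4 1 to 3. It differed by 1.56 ± 0.09 (adjusted p = 0.00168), the coactivator gene Maml2 by 1.03 ± 0.04 (adjusted p = 0.000405) and the receptor gene Notch3 by 0.49 ± 0.04 (adjusted p = 0.00309), while Notch1 was lower, at -1.01 ± 0.04 (adjusted p = 0.000464). The second probe of Maml2 differed by 0.17 (adjusted p = 0.677). Sox8, a factor of the SoxE group, was higher by 0.88 ± 0.05 (adjusted p = 0.00132).

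Factors known from conventional T cell development were among those lower in DN. Bcl11b, which commits thymocytes to the T lineage, had log2 signals of 8.28, 8.35 and 8.20 in DN 1 to 3 and 10.50, 10.58 and 10.45 in CD4 1 to 3. All 3 CD4 arrays lay above all 3 DN arrays, with a difference of -2.23 ± 0.05 (adjusted p = 0.000127). Lef1, a Wnt pathway factor of naive and developing T cells, stood at 5.97, 6.35 and 6.27 in DN 1 to 3 and at 7.92, 8.24 and 8.33 in CD4 1 to 3. Satb1, a chromatin organiser of thymocytes, gave 9.24, 9.37 and 9.21 on the arrays DN 1 to 3 and 10.75, 10.99 and 10.77 on CD4 1 to 3. The fractions did not overlap in either gene, with differences of -1.97 ± 0.15 (adjusted p = 0.0035) and -1.56 ± 0.08 (adjusted p = 0.00121). Gata3, the factor of T helper type 2 cells and of CD4 lineage choice, was lower, at -1.01 ± 0.09 (adjusted p = 0.00534). Ascl2, a factor of follicular helper cells, differed by -0.72 ± 0.06 (adjusted p = 0.00523), Plagl1, a zinc finger gene, by -1.37 ± 0.09 (adjusted p = 0.00248), Ski, a corepressor of Smad proteins, by -1.35 ± 0.12 (adjusted p = 0.00625), and Myb by -0.37 ± 0.02 (adjusted p = 0.00179). Batf, an AP-1 factor of follicular helper and T helper type 17 cells, differed by -1.41 ± 0.18 (adjusted p = 0.0169), and its adjusted p was 0.0813, 0.0891 and 0.0891 with DN 2, DN 3 and CD4 2 left out in turn.

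Several lineage factors did not pass the test. Among the 14 genes of the T-box, Eomes and Hobit list 0 were called by limma, and Tbx21, the factor of T helper type 1 and cytotoxic cells, had the largest difference, -0.42 (adjusted p = 0.664). In replicates 2 and 3 alone Tbx21 differed by -0.50 (adjusted p = 0.0108). The lineage factors Zbtb7b, Runx3 and Foxp3, chosen after their values were seen, differed by -0.13, -0.04 and -0.24, with adjusted p of 0.605, 0.849 and 0.169. Foxp3 was lower on all 3 DN arrays and differed by -0.30 in replicates 2 and 3 alone (adjusted p = 0.0249). Its adjusted p was 0.0399 with CD4 1 left out. In the Nfat and NF-κB list 0 of 14 genes were called, with Nfkb2 at 0.60 (adjusted p = 0.078, and 0.012 with the replicate block).

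**Figure D1:**
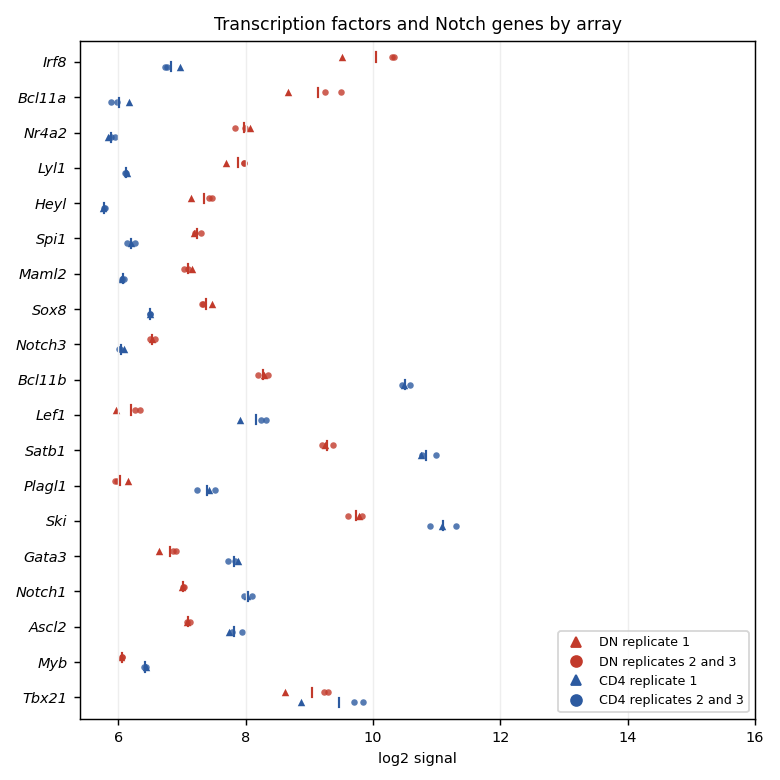
Log2 signal of 19 transcription factor and Notch pathway genes on each of the 6 arrays, with DN in red and CD4 in blue, triangles for replicate 1, circles for replicates 2 and 3, and a bar at each mean. The upper genes lie to the right in DN and the lower ones in CD4 with no overlap, except Tbx21, whose values overlap.

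Among the receptor genes, 33 of 368 were higher and 23 lower in DN (15.2% called). The list of natural killer lectin receptors also holds Cd244a, which is no lectin. In this list 10 of 25 genes were higher and 0 lower (40% called, median difference 0.21). Without Cd244a the median over 24 genes was 0.18. The lectin receptor genes named next were chosen from those called, and most of the list was not called. Klrd1, the CD94 chain of NKG2 receptors, had log2 signals of 13.20, 13.68 and 13.66 in DN 1 to 3 and 7.31, 7.52 and 7.47 in CD4 1 to 3. Klra6, a receptor of the Ly49 family that binds MHC class I, stood at 10.66, 10.50 and 10.67 in DN 1 to 3 and at 6.001, 5.96 and 5.93 in CD4 1 to 3. All 3 DN arrays were high and all 3 CD4 arrays low in both, and the differences were 6.08 ± 0.15 (adjusted p = 0.000127) and 4.65 ± 0.06 (adjusted p = 1.71e-05). Klra5 and Klre1, 2 further lectin receptor genes, differed by 5.03 ± 0.09 (adjusted p = 5.61e-05) and 3.95 ± 0.09 (adjusted p = 0.000127). Genes of the Ly49 family are near-identical, and cross-hybridisation between them was not tested. Cd244a, the 2B4 receptor for CD48, gave 11.67, 10.16 and 10.72 on the arrays DN 1 to 3 and 6.42, 5.93 and 5.99 on CD4 1 to 3. The DN values spread more widely than those of CD4 and stayed above every CD4 value, with a difference of 4.74 ± 0.41 (adjusted p = 0.00537). Cd160, a receptor for MHC class I and HVEM, was higher by 2.00 ± 0.06 (adjusted p = 0.000158). In the list of inhibitory and costimulatory receptors 9 of 37 genes were higher and 4 lower.

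Adaptor genes that serve such receptors were also among those higher. Fcer1g, the γ chain that couples Fc receptors and some natural killer receptors to kinases, had log2 signals of 13.05, 13.14 and 13.06 in DN 1 to 3 and 6.51, 6.33 and 6.33 in CD4 1 to 3. All DN arrays were high and all CD4 arrays low, with a difference of 6.69 ± 0.06 (adjusted p = 1.62e-05), a fold of 103 on this scale. Tyrobp, the adaptor DAP12, stood at 10.16, 9.46 and 9.53 in DN 1 to 3 and at 6.43, 6.12 and 6.18 in CD4 1 to 3. The difference was 3.47 ± 0.22 (adjusted p = 0.00185), larger in replicate 1 than in the others. Cd200r2, a relative of the CD200 receptor, gave 11.90, 11.16 and 11.005 on the arrays DN 1 to 3 and 6.22, 5.95 and 5.96 on CD4 1 to 3. DN 1 was the highest array, and the difference was 5.31 ± 0.26 (adjusted p = 0.00092). Fcgr2b, the inhibitory receptor for IgG, differed by 0.55 ± 0.02 (adjusted p = 0.000532) and was detected on 1 of the 3 CD4 arrays. Fcgr2b is also a gene of B cells, whose markers were higher in DN as given above. Cd7 was higher by 5.57 ± 0.76 (adjusted p = 0.0214), with adjusted p of 0.0992, 0.102, 0.0891 and 0.0845 with DN 2, DN 3, CD4 2 and CD4 3 left out in turn.

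Costimulatory and cytokine receptors were among the genes lower in DN. Cd28, the main costimulatory receptor of naive T cells, had log2 signals of 9.40, 9.06 and 9.06 in DN 1 to 3 and 13.39, 13.04 and 13.05 in CD4 1 to 3. All CD4 arrays were high and all DN arrays lower, with a difference of -3.99 ± 0.14 (adjusted p = 0.000322). Tnfrsf4, the costimulatory receptor OX40, stood at 6.90, 6.49 and 6.49 in DN 1 to 3 and at 9.56, 10.01 and 10.04 in CD4 1 to 3. Its difference was -3.25 ± 0.18 (adjusted p = 0.00139), and in the TNF receptor family 5 of 27 genes were lower and 1 higher, Tnfrsf13c, the BAFF receptor of B cells (3.67). Tnfrsf13c was not called in 4 of the 6 runs that left out 1 array (adjusted p = 0.0924, 0.0878, 0.102 and 0.099 with DN 2, DN 3, CD4 2 and CD4 3 left out in turn). Fas, the death receptor, was lower, at -0.54 ± 0.04 (adjusted p = 0.00331). Icos, a costimulatory receptor of follicular helper cells, was lower, at -2.27 ± 0.22 (adjusted p = 0.00762), with adjusted p of 0.0548 and 0.0502 with DN 2 and CD4 2 left out in turn. Of 45 cytokine receptor genes 6 were lower and 0 higher (13.3% called, against 5.15% of all genes), with a median of -0.02. Il2ra, the α chain of the interleukin 2 receptor, gave 6.32, 6.51 and 6.48 on the arrays DN 1 to 3 and 7.77, 7.89 and 7.66 on CD4 1 to 3. The 3 DN arrays were all below the 3 CD4 arrays, at -1.34 ± 0.08 (adjusted p = 0.00177), and the interleukin 27 receptor gene Il27ra differed by -1.14 ± 0.09 (adjusted p = 0.00453). Il7r, the interleukin 7 receptor, differed by -1.11 ± 0.11 (adjusted p = 0.00823) and had an adjusted p of 0.0528 with CD4 3 left out.

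Outside the classical immune receptors, a growth factor receptor and several G protein-coupled receptors differed. Igf1r, the receptor for insulin-like growth factor 1, had log2 signals of 6.4, 6.22 and 6.19 in DN 1 to 3 and 9.89, 9.51 and 9.61 in CD4 1 to 3. It was near the low end of the scale in all DN arrays, and the difference was -3.40 ± 0.12 (adjusted p = 0.000291). Ryk, a Wnt co-receptor, was lower, at -0.35 ± 0.03 (adjusted p = 0.00613), but was not called on the deposited value table (adjusted p = 0.0844). Gpr83, a receptor of regulatory T cells, stood at 5.82, 5.98 and 6.03 in DN 1 to 3 and at 7.64, 7.48 and 7.75 in CD4 1 to 3. Gpr83 and Gpr155 were lower, at -1.68 ± 0.09 (adjusted p = 0.00125) and -1.55 ± 0.10 (adjusted p = 0.00231), whereas the orphan receptor gene Gpr160 was higher by 1.42 ± 0.11 (adjusted p = 0.00375). Among 18 chemokine receptor genes 1 was higher and 1 lower (11.1% called, against 5.15% of all genes). Ccrl2, an atypical receptor that binds chemerin, gave 7.60, 7.73 and 7.60 on the arrays DN 1 to 3 and 5.98, 5.96 and 5.97 on CD4 1 to 3. The difference was 1.67 ± 0.04 (adjusted p = 0.000142), and that of Ccr2, a receptor of migrating effector cells and monocytes, was -1.03 ± 0.08 (adjusted p = 0.00373). Izumo1r, a surface protein of the folate receptor family, had log2 signals of 7.81, 8.13 and 8.06 in DN 1 to 3 and 13.53, 13.44 and 13.39 in CD4 1 to 3. The fractions lay far apart on every array, with a difference of -5.45 ± 0.09 (adjusted p = 5.33e-05). Izumo1r is also in the list of regulatory T cell markers counted below.

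Among the signalling genes, 28 of 426 were higher and 18 lower (10.8% called). In the list of kinases of antigen and cytokine receptors 9 of 64 were higher and 1 was lower. Dapk2, a calmodulin-regulated kinase outside this list, stood at 12.19, 10.96 and 11.32 in DN 1 to 3 and at 6.72, 6.22 and 6.34 in CD4 1 to 3. DN 1 was the highest of the DN arrays, all of which lay above CD4, and the difference was 5.06 ± 0.35 (adjusted p = 0.00248). Btk, a kinase of the B cell receptor and of myeloid receptors, gave 8.23, 8.46 and 8.32 on the arrays DN 1 to 3 and 6.16, 5.91 and 5.96 on CD4 1 to 3. Btk, which is in the kinase list, was higher by 2.33 ± 0.09 (adjusted p = 0.000405). Outside that list, Themis2, an adaptor of B and myeloid cells, was higher by 3.63 ± 0.13 (adjusted p = 0.000339). Blnk, the linker of the B cell receptor and also outside it, was higher by 4.51 ± 0.28 (adjusted p = 0.00188). The B cell marker means given above are higher on the same 3 DN arrays, and their part in these genes was not tested. Prkcq, the protein kinase Cθ that links CD28 and the T cell receptor to NF-κB, had log2 signals of 8.13, 8.62 and 8.58 in DN 1 to 3 and 10.55, 10.37 and 10.32 in CD4 1 to 3. Prkcq was the 1 gene of the kinase list lower in DN, at -1.97 ± 0.15 (adjusted p = 0.00375), and its second probe differed by -0.36 (adjusted p = 0.0725).

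Among the regulators of G proteins named here, 1 was lower and 1 higher. Rgs10, a GTPase activator that ends G protein signals, stood at 7.34, 6.99 and 6.91 in DN 1 to 3 and at 9.29, 9.56 and 9.47 in CD4 1 to 3. Rgs10 was lower, at -2.36 ± 0.14 (adjusted p = 0.00159) and Rgs3, of the same family, higher by 1.77 ± 0.15 (adjusted p = 0.00462), with its other probes at 0.66 and 0.07 (adjusted p = 0.148 and 0.941). Sh2d1a, the adaptor SAP of the SLAM receptors, gave 8.68, 8.30 and 8.71 on the arrays DN 1 to 3 and 12.17, 11.41 and 12.07 on CD4 1 to 3. The difference was -3.32 ± 0.24 (adjusted p = 0.00303), that of Tbc1d4, a Rab GTPase activator known from glucose transporter traffic, was -3.001 ± 0.12 (adjusted p = 0.000403), and that of Dennd2d, a Rab exchange factor, was -2.71 ± 0.22 (adjusted p = 0.00434). Sh2d1a and Tbc1d4 are also in the list of follicular helper markers counted below. Trib2, a pseudokinase that directs protein degradation, had log2 signals of 9.88, 9.95 and 9.90 in DN 1 to 3 and 11.90, 11.93 and 12.02 in CD4 1 to 3. Its values varied little within each fraction, and the difference was -2.04 ± 0.04 (adjusted p = 6.86e-05). Isg15, an interferon-induced modifier, was lower, at -1.43 ± 0.10 (adjusted p = 0.00246). Of 40 interferon response genes 2 were higher and 3 lower (12.5% called, against 5.15% of all genes).

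Among the genes of adhesion and motility, 29 of 331 were higher and 17 lower (13.9% called). Itgae, the integrin αE that binds E-cadherin, stood at 10.76, 11.56 and 11.48 in DN 1 to 3 and at 7.51, 7.40 and 7.5 in CD4 1 to 3. DN 1 was the lowest DN array and still well above all CD4 arrays. The difference was 3.80 ± 0.23 (adjusted p = 0.00166), while its second probe differed by 0.52 (adjusted p = 0.1). Itgax, the integrin αX known as CD11c, gave 8.16, 8.60 and 8.64 on the arrays DN 1 to 3 and 5.86, 5.86 and 5.86 on CD4 1 to 3. Itgax, which also marks dendritic cells, differed by 2.61 ± 0.14 (adjusted p = 0.00117), and Itga6, a laminin receptor chain, by -0.53 ± 0.05 (adjusted p = 0.00572) in the other direction. Tspan9, a tetraspanin, had log2 signals of 10.74, 10.38 and 10.47 in DN 1 to 3 and 7.55, 7.41 and 7.31 in CD4 1 to 3. The difference was 3.11 ± 0.11 (adjusted p = 0.000345), and its second probe differed by 0.66 (adjusted p = 0.224). Gcnt1, the enzyme that builds core 2 glycans of selectin ligands, was higher by 1.60 ± 0.05 (adjusted p = 0.000239). Thy1, a glycoprotein of T cells anchored by a lipid, stood at 10.70, 10.59 and 10.53 in DN 1 to 3 and at 13.37, 12.999 and 13.25 in CD4 1 to 3. Thy1 was lower, at -2.60 ± 0.11 (adjusted p = 0.000505), and its second probe, dim on all arrays, differed by -0.01 (adjusted p = 0.955).

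The cytoskeleton list had 11 of 84 genes higher and 4 lower in DN. Myo1e, a myosin that links actin to membranes, gave 9.89, 9.83 and 10.40 on the arrays DN 1 to 3 and 7.23, 7.21 and 7.38 on CD4 1 to 3. Actn2, an actin crosslinker of muscle, had log2 signals of 9.57, 9.52 and 9.42 in DN 1 to 3 and 6.85, 7.05 and 7.07 in CD4 1 to 3. Both were higher in all 3 DN arrays, by 2.77 ± 0.17 (adjusted p = 0.00168) and 2.51 ± 0.07 (adjusted p = 0.000206). Gsn, which encodes the actin-severing gelsolin, was higher by 1.72 ± 0.13 (adjusted p = 0.0035). Rflnb, which encodes the filamin-binding refilin B, stood at 7.79, 8.40 and 8.30 in DN 1 to 3 and at 11.36, 10.77 and 10.74 in CD4 1 to 3. Rflnb was lower, at -2.79 ± 0.24 (adjusted p = 0.00548), with the widest gap in replicate 1. Acta2, smooth muscle actin, was lower, at -0.59 ± 0.04 (adjusted p = 0.00166).

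In the list of cadherins, claudins and junction proteins 2 of 32 genes were higher in DN and 0 lower (6.25% called, close to the 5.15% of all genes). Cdh17, an intestinal cadherin, gave 7.44, 7.45 and 7.39 on the arrays DN 1 to 3 and 6.01, 5.92 and 5.91 on CD4 1 to 3. Cdh1, which encodes E-cadherin, had log2 signals of 6.97, 6.79 and 6.80 in DN 1 to 3 and 6.04, 5.97 and 5.996 in CD4 1 to 3. The differences were 1.48 ± 0.04 (adjusted p = 0.000145) and 0.85 ± 0.06 (adjusted p = 0.00248), without overlap. Both are also markers of intestinal epithelium. In that list 8 of 32 genes were higher in DN and 0 lower, with a median of 0.15, and its mean signal was 6.90, 6.67 and 6.65 in DN 1 to 3 and 6.46, 6.4 and 6.39 in CD4 1 to 3. Its summed intensity in the deposited table was 2400 to 3710 units in DN and 1640 to 2590 in CD4, and 3 of its 8 defining genes were higher in DN. The part of epithelial RNA in these genes was not tested.

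Among the metabolic genes, 32 of 664 were higher and 30 lower (9.34% called). In the list of fatty acid, phospholipid and sphingolipid synthesis, which holds Scd1, 1 of 57 genes was higher and 2 were lower (5.26% called, close to the background). Scd1, the desaturase that makes monounsaturated fatty acids, stood at 10.75, 10.97 and 11.07 in DN 1 to 3 and at 6.82, 6.34 and 6.47 in CD4 1 to 3. Ncf1, the p47 subunit of the NADPH oxidase, gave 10.03, 10.41 and 10.73 on the arrays DN 1 to 3 and 6.72, 6.42 and 6.53 on CD4 1 to 3. The DN arrays lay far above the CD4 arrays in both, and the differences were 4.39 ± 0.15 (adjusted p = 0.000291) and 3.83 ± 0.19 (adjusted p = 0.00105). Ncf1 is also a gene of B and myeloid cells, and the part of the B cell markers in it was not tested. In the cholesterol list 5 of 35 genes were higher and 0 lower. Osbpl3, an oxysterol-binding protein, was higher by 1.09 ± 0.10 (adjusted p = 0.00655). Sqle and Mvd, enzymes of sterol synthesis, were higher by 1.27 ± 0.15 (adjusted p = 0.0162) and 0.92 ± 0.10 (adjusted p = 0.0104). The adjusted p of Sqle was 0.0861, 0.0742, 0.0682 and 0.0583 with DN 2, DN 3, CD4 2 and CD4 3 left out in turn, and that of Mvd 0.061 and 0.0635 with CD4 2 and CD4 3 left out in turn. In the redox list 6 of 54 genes were higher and 1 was lower. Gpx8, a glutathione peroxidase of the endoplasmic reticulum, had log2 signals of 7.91, 7.82 and 7.73 in DN 1 to 3 and 6.01, 6.02 and 5.90 in CD4 1 to 3. It differed by 1.84 ± 0.06 (adjusted p = 0.000269), and Prdx4, a peroxiredoxin of the same compartment, by -1.14 ± 0.06 (adjusted p = 0.000973).

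Car2, a carbonic anhydrase, stood at 9.72, 10.27 and 10.37 in DN 1 to 3 and at 6.28, 6.01 and 5.96 in CD4 1 to 3. Car2 was high in all DN arrays, least in replicate 1, with a difference of 4.03 ± 0.20 (adjusted p = 0.000961). Trf, which encodes the iron carrier transferrin, gave 8.36, 7.96 and 7.92 on the arrays DN 1 to 3 and 5.86, 5.89 and 5.91 on CD4 1 to 3. Trf was higher by 2.19 ± 0.13 (adjusted p = 0.0015) and Blvrb, which reduces biliverdin, by 1.44 ± 0.05 (adjusted p = 0.000291). Fabp2, an intestinal fatty acid-binding protein, differed by 1.40 ± 0.10 (adjusted p = 0.00248) beside the epithelial markers given above. Among glycan enzymes, B3gnt7 and Chst12, which act on keratan and chondroitin sulphate chains, were higher by 2.00 ± 0.07 (adjusted p = 0.000345) and 1.30 ± 0.06 (adjusted p = 0.000652). Ext1, a polymerase of heparan sulphate, had log2 signals of 6.79, 6.61 and 6.57 in DN 1 to 3 and 8.74, 8.74 and 8.64 in CD4 1 to 3. Ext1 was lower, at -2.05 ± 0.07 (adjusted p = 0.000291). Entpd1, the ectonucleotidase CD39, and Kynu, the kynureninase of tryptophan breakdown, were higher by 0.61 ± 0.04 (adjusted p = 0.0015) and 0.70 ± 0.06 (adjusted p = 0.00643), and Kynu was detected on 2 of the 3 CD4 arrays.

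In the list of glycolysis and glucose transport, which includes oxygen sensors, 4 of 34 genes were lower and 0 higher in DN. Egln3, a prolyl hydroxylase induced by low oxygen, stood at 6.01, 5.97 and 6.01 in DN 1 to 3 and at 8.70, 8.10 and 8.46 in CD4 1 to 3. It was near the low end of the scale in DN, and the difference was -2.42 ± 0.16 (adjusted p = 0.0021). Pgam2, the muscle phosphoglycerate mutase, differed by -0.80 ± 0.03 (adjusted p = 0.000403) and Ldhb, a lactate dehydrogenase chain, by -1.50 ± 0.15 (adjusted p = 0.00919), the latter with adjusted p of 0.0587, 0.0543 and 0.0568 with DN 2, CD4 2 and CD4 3 left out in turn. In the citrate cycle list 0 of 34 genes were called by limma, and Idh2 had the largest difference, -0.58 (adjusted p = 0.359). Of 66 respiratory chain genes 1 was lower, Atp5g2 (-0.34), with a list median of -0.12. Atp5g2 was not called on the value table (adjusted p = 0.273), with median scaling (0.0631) or in 3 runs that left out 1 array (adjusted p = 0.079, 0.0918 and 0.0767 with DN 2, DN 3 and CD4 3 left out in turn). Slco3a1, an organic anion transporter, gave 6.96, 6.94 and 7.07 on the arrays DN 1 to 3 and 9.36, 8.81 and 9.08 on CD4 1 to 3. Among 95 channels and solute carriers 3 were higher and 8 lower, and Slco3a1 differed by -2.10 ± 0.15 (adjusted p = 0.0026).

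**Figure D2:**
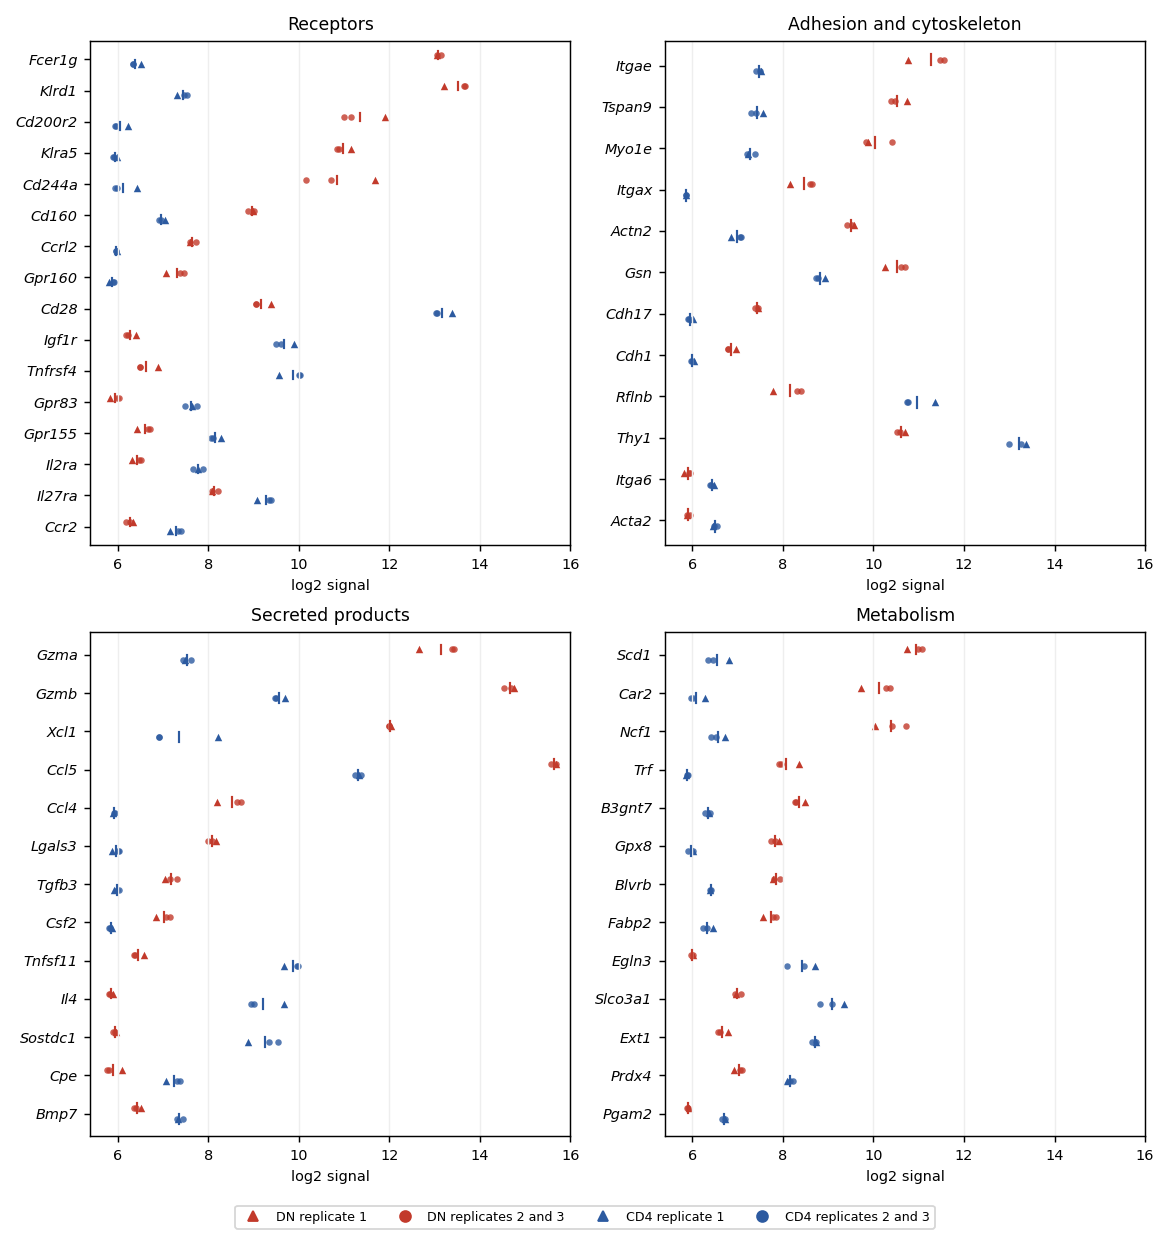
Log2 signal of named genes on the 6 arrays in 4 panels (receptors, adhesion and cytoskeleton, secreted products, metabolism), with DN in red, CD4 in blue, triangles for replicate 1, circles for replicates 2 and 3 and a bar at each mean. In all genes drawn the DN and CD4 values do not overlap.

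Among the genes of secreted products, 23 of 296 were higher and 17 lower in DN (13.5% called). In the granule list 8 of 28 genes were higher and 1 was lower. Gzma, a serine protease of cytotoxic granules, had log2 signals of 12.65, 13.42 and 13.38 in DN 1 to 3 and 7.49, 7.45 and 7.63 in CD4 1 to 3. Gzmb, the granzyme that activates caspases, stood at 14.75, 14.53 and 14.70 in DN 1 to 3 and at 9.69, 9.48 and 9.51 in CD4 1 to 3. Both were high in all 3 DN arrays, and the differences were 5.62 ± 0.23 (adjusted p = 0.000464) and 5.10 ± 0.09 (adjusted p = 5.3e-05). Nkg7, a granule membrane protein, was higher by 4.07 ± 0.40 (adjusted p = 0.00786), and Stx11, a syntaxin of granule release, was lower, at -0.98 ± 0.07 (adjusted p = 0.00317). Of 24 chemokine genes 4 were higher and 1 was lower. Xcl1, a chemokine that attracts cross-presenting dendritic cells, gave 12.04, 12.002 and 11.98 on the arrays DN 1 to 3 and 8.23, 6.90 and 6.90 on CD4 1 to 3. Its DN values varied little, CD4 1 lay above CD4 2 and CD4 3, and the difference was 4.66 ± 0.39 (adjusted p = 0.00467). Ccl4, an inflammatory chemokine, had log2 signals of 8.19, 8.73 and 8.64 in DN 1 to 3 and 5.89, 5.92 and 5.93 in CD4 1 to 3. It was higher by 2.60 ± 0.15 (adjusted p = 0.0015), and Ccl3, a further inflammatory chemokine, by 1.68 ± 0.10 (adjusted p = 0.0015). Ccl5, a chemokine of effector T cells, differed by at least 4.32 ± 0.05 (adjusted p = 1.71e-05), since its spot in DN 1 was at the scanner limit.

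Some growth factors and cytokines were higher in DN. Csf2, the cytokine GM-CSF, stood at 6.84, 7.06 and 7.17 in DN 1 to 3 and at 5.87, 5.84 and 5.81 in CD4 1 to 3. Tgfb3, a transforming growth factor β, gave 7.06, 7.31 and 7.16 on the arrays DN 1 to 3 and 5.92, 5.99 and 6.02 on CD4 1 to 3. Both were near the low end in CD4, and the differences were 1.18 ± 0.09 (adjusted p = 0.00325) and 1.2 ± 0.07 (adjusted p = 0.00173). Lgals3, the lectin galectin 3, was higher by 2.12 ± 0.07 (adjusted p = 0.000239), Tnfsf13, the B cell factor APRIL, by 0.57 ± 0.05 (adjusted p = 0.00467), and S100a1, a calcium-binding protein, by 1.41 ± 0.11 (adjusted p = 0.00393).

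Of 44 interleukin and interferon genes 1 was higher and 4 were lower in DN. Il4, the cytokine of T helper type 2 and follicular helper cells, had log2 signals of 5.90, 5.81 and 5.84 in DN 1 to 3 and 9.67, 9.003 and 8.95 in CD4 1 to 3. All DN values lay at the low end, and the difference was -3.36 ± 0.21 (adjusted p = 0.00178). Il21, the follicular helper cytokine, was lower, at -1.83 ± 0.19 (adjusted p = 0.0096), with adjusted p of 0.0638 and 0.0638 with DN 2 and DN 3 left out in turn. Tnfsf11, which encodes RANKL, stood at 6.59, 6.39 and 6.35 in DN 1 to 3 and at 9.67, 9.99 and 9.96 in CD4 1 to 3. It differed by -3.43 ± 0.11 (adjusted p = 0.000287), and in the TNF ligand list 4 of 15 genes were lower and 1 higher. Cd40lg, the helper ligand of B cells, differed by -0.42 ± 0.06 (adjusted p = 0.027) and was not called with the replicate block (adjusted p = 0.0535) or without 1 of 5 arrays (adjusted p = 0.0645, 0.124, 0.113, 0.0891 and 0.0823 with DN 1, DN 2, DN 3, CD4 2 and CD4 3 left out in turn). Il21 and Cd40lg were detected on 2 of the 3 DN arrays. Sostdc1, an antagonist of BMP and Wnt ligands made by follicular helper cells, gave 5.97, 5.90 and 5.95 on the arrays DN 1 to 3 and 8.87, 9.55 and 9.34 on CD4 1 to 3. Sostdc1 was lower, at -3.31 ± 0.18 (adjusted p = 0.00127), the BMP ligand gene Bmp7 at -0.93 ± 0.06 (adjusted p = 0.00168) and Cpe, a peptide-processing carboxypeptidase, at -1.36 ± 0.13 (adjusted p = 0.00692).

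Promoters of genes that differed by much are shown to give the sequence around their start sites, where motifs of lymphocyte factors were searched as letters on both strands. The E-box CACCTG was found in 23.6% of 444 promoter windows of genes higher in DN, 23.2% of 396 windows of genes lower and 19.4% of 16383 windows of all genes tested. The Runx motif TGTGGTTT was found in 2.7%, 1.01% and 1.42% and the T-box motif TCACACCT in 1.8%, 1.01% and 1.18%, in the same order. The Gata motif AGATAA was found in 9.01%, 7.83% and 8.48%, the Tcf motif CTTTGAT in 2.03%, 1.52% and 3%, the Ets motif ACCGGAAGT in 0.45%, 0.758% and 1.63%, and a κB motif in 0.676%, 0% and 0.183%. A match is a description of these letters and not a binding site. Gzma, Klra6 and Izumo1r, chosen after their values were seen, are given as RefSeq windows of 300 bases of the build GRCm38.p6, from 250 bases before to 50 after the start, 5′ to 3′ on the minus strand, with matches in capitals. Gzma lies at chr13:113100932-113101231 and holds 2 E-boxes and a Runx match, Klra6 at chr6:130026905-130027204 with an E-box and a Tcf match, and Izumo1r at chr9:14903718-14904017 with an E-box.
Gzma: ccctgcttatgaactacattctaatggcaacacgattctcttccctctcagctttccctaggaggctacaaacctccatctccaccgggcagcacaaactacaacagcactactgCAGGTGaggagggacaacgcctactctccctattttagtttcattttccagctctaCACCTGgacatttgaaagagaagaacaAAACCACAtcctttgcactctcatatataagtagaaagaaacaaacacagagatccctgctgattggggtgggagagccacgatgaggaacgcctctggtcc
Klra6: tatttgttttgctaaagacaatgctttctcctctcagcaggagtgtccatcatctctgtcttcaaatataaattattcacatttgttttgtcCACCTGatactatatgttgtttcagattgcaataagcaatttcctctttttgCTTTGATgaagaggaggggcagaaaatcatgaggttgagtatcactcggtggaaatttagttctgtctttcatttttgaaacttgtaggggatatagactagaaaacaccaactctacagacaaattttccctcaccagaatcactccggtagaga
Izumo1r: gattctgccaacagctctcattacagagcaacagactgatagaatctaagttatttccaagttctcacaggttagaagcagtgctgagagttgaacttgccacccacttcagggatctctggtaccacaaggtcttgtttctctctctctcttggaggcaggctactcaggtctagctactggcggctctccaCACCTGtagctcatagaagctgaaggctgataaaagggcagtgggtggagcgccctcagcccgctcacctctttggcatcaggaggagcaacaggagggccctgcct

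**Figure D3:**
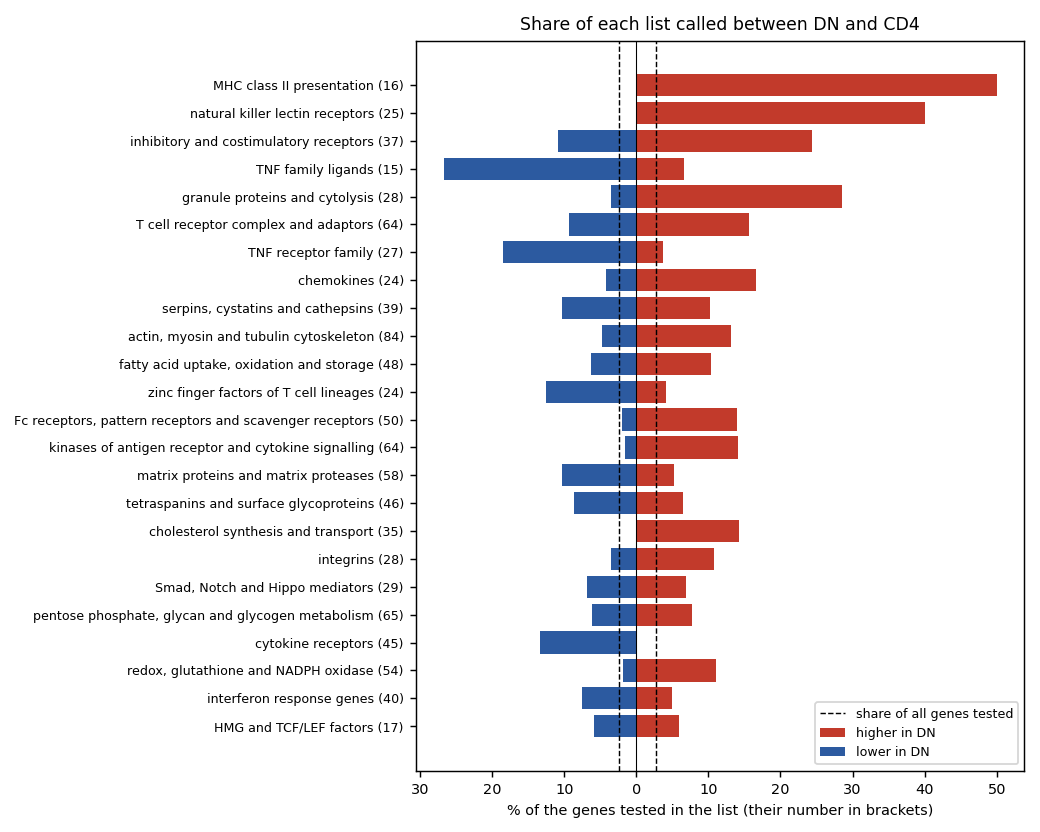
Share of the genes tested in a list that were called higher (red, to the right) or lower (blue, to the left) in DN, for the 24 lists with the highest share called outside the cell type markers, with the number of genes tested in brackets. The dashed lines mark the share over all genes tested, 2.74% higher and 2.41% lower. The class II list reaches 50% and the natural killer lectin list, which also holds Cd244a, 40% on the higher side.

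Genes of antigen presentation were higher in DN where they belong to class II. In the class II list 8 of 16 genes were higher and 0 lower, with a median difference of 1.4, and in the class I list 0 of 32 were higher and 1 was lower. H2-Aa, the α chain of a class II molecule, had log2 signals of 14.02, 14.22 and 14.08 in DN 1 to 3 and 9.63, 8.64 and 8.85 in CD4 1 to 3. H2-Eb1, a class II β chain, stood at 11.70, 12.99 and 13.28 in DN 1 to 3 and at 7.29, 7.60 and 7.74 in CD4 1 to 3. DN 1 was the lowest DN array in both and all DN arrays lay above CD4, with differences of 5.07 ± 0.27 (adjusted p = 0.00122) and 5.11 ± 0.44 (adjusted p = 0.00534). Cd74, the invariant chain, differed by 4.46 in replicate 1 and 5.4 in replicates 2 and 3. H2-Ab1, H2-DMb1, H2-DMa and H2-Ob differed by 3.13, 2.29, 1.63 and 2.16 and were not called in some runs without 1 library. The adjusted p of H2-Ab1 was 0.0666, 0.119, 0.126, 0.133 and 0.128 with CD4 1, DN 2, DN 3, CD4 2 and CD4 3 left out in turn. That of H2-DMb1 was 0.0863, 0.163, 0.148, 0.161 and 0.158 with CD4 1, DN 2, DN 3, CD4 2 and CD4 3 left out in turn. That of H2-DMa was 0.117, 0.119, 0.0989 and 0.0772 with DN 2, DN 3, CD4 2 and CD4 3 left out in turn, and that of H2-Ob was 0.0777, 0.0878, 0.0899 and 0.0616 with DN 2, DN 3, CD4 2 and CD4 3 left out in turn. With median scaling the adjusted p was 0.0575 for H2-DMb1 and 0.0581 for H2-DMa. The transactivator gene Ciita differed by -0.40 (adjusted p = 0.444). Cd83, a maturation marker of antigen-presenting cells, was higher by 1.09 ± 0.09 (adjusted p = 0.00541).

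The B cell markers, like the class II genes, were higher on the DN arrays. Of the 25 B cell markers 14 were higher in DN and 0 lower, with a median difference of 1.5, and their summed intensity in the deposited table was 23900 to 27500 units in DN and 4720 to 5370 in CD4. Cd79b, a signalling chain of the B cell receptor, gave 12.61, 12.79 and 12.76 on the arrays DN 1 to 3 and 8.69, 7.56 and 7.83 on CD4 1 to 3. Ms4a1, which encodes CD20, had log2 signals of 10.76, 10.91 and 11.39 in DN 1 to 3 and 7.29, 6.4 and 6.48 in CD4 1 to 3. DN exceeded CD4 on all arrays, by 4.69 ± 0.31 (adjusted p = 0.00214) and 4.30 ± 0.30 (adjusted p = 0.00267), and Fcmr, an IgM receptor of B cells, differed by 4.57 ± 0.34 (adjusted p = 0.00325). Of the 7 defining markers of B cells measured, 4 were higher, and all 7 were detected on the 3 arrays of both fractions. Ebf1, 1 of the 4, differed by 0.38 (adjusted p = 0.0189) and was not called on the deposited value table (adjusted p = 0.243). Its adjusted p was 0.0992, 0.0834, 0.0738 and 0.0697 with DN 2, DN 3, CD4 2 and CD4 3 left out in turn. Its other probes differed by 0.26 and 0.08 (adjusted p = 0.134 and 0.264). Pax5, the B lineage factor, and Cd79a differed by 0.24 and 0.97 with adjusted p of 0.0646 and 0.233, and Cd22 by 1.5 with 0.0516. On the deposited value table Pax5 and Cd22 were called, with adjusted p of 0.0206 and 0.0164. All 14 genes called differed by less in replicate 1 than in replicates 2 and 3, as did the class II list, whose mean signal was 8.51, 9.21 and 9.24 in DN 1 to 3 and 7.23, 7.38 and 7.44 in CD4 1 to 3. The part of B cell RNA in the class II difference was not tested. Cxcr5, which follicular helper cells share with B cells, is in the same list and differed by -1.45 (adjusted p = 0.0604, and 0.0177 with the replicate block). Its mean log2 signal was 9.51 in DN and 10.96 in CD4, so the summed intensity of the list in CD4 is no measure of B cell RNA.

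Markers of other cells were counted in the same way. Among 18 dendritic cell markers 3 were higher in DN and 0 lower (median 0.14), and their summed intensity in the deposited table was 2740 to 3760 units in DN and 1780 to 2640 in CD4. Of 5 defining genes, 3 were detected on all 3 DN arrays and 2 on all 3 CD4 arrays. Of the 3 tested, 0 were higher and 0 lower. The other defining genes, Xcr1 and Clec9a, were detected on 0 of the 3 CD4 arrays and on 0 and 1 of the 3 DN arrays. Of 18 macrophage and monocyte markers 0 were higher and 1 was lower, and of 19 stromal and endothelial markers 0 were higher and 2 were lower. Of 10 plasma cell markers 2 were higher. Of 13 natural killer and innate lymphoid markers 2 were higher and 2 lower (median 0.006), and of their 3 defining genes tested 0 were higher and 0 lower. In the red cell and platelet list 7 genes met the detection rule, with 1 higher in DN, Car2, and 0 lower (median -0.02). Pf4, the 1 defining gene of these cells on the array, was detected on none of the 6 arrays. Among the T cell subset lists, 9 of 18 follicular helper genes were lower in DN and 0 higher (median -1.26), 6 of 16 regulatory genes were lower and 0 higher (median -0.29), and 4 of 11 genes of naive and recirculating cells were lower and 0 higher (median -0.28). Of the 4 defining genes of follicular helper cells 1 was lower, Il21, and of the 3 of regulatory T cells 1, Il2ra, with 0 higher. The defining genes Cxcr5 and Foxp3 did not pass the test over the 6 arrays.

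**Figure D4:**
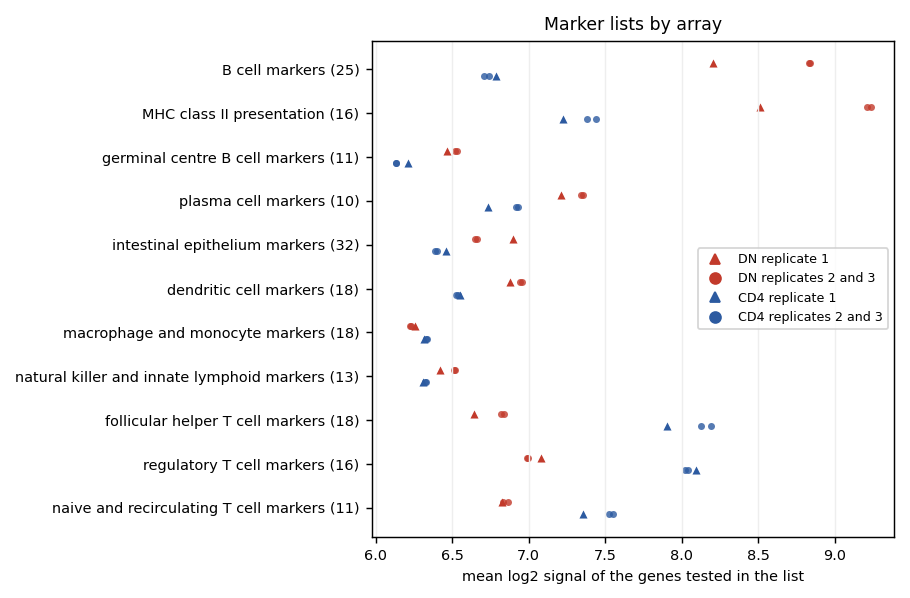
Mean log2 signal of the genes tested in each marker list (number in brackets) on the 6 arrays, with DN in red, CD4 in blue, triangles for replicate 1 and circles for replicates 2 and 3. The B cell and class II lists lie to the right in DN, least in replicate 1, and the T cell subset lists lie to the right in CD4.

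Among 96 housekeeping genes 0 were higher and 9 lower in DN (9.38% called, against 5.15% of all genes). Of 53 ribosomal protein genes 6 were lower and 0 higher, with a median of -0.26 against -0.01 over all probes. The median of the list was -0.51 with median scaling and -0.47 on the deposited value table. Rpl31, a protein of the large subunit, stood at 8.43, 8.50 and 8.40 in DN 1 to 3 and at 9.54, 9.28 and 9.44 in CD4 1 to 3. Its difference was -0.98 ± 0.08 (adjusted p = 0.00387). In the cell cycle list 0 of 76 genes were called by limma, and Btg3, which restrains proliferation, had the largest difference, 0.88 (adjusted p = 0.124, and 0.0291 with the replicate block). Of 43 stress and unfolded protein response genes 0 were higher and 3 were lower.

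Most genes called belong to none of the lists, 563 of 867, with 286 higher and 277 lower in DN. The following were chosen from them after their values were seen. Cited4, a coactivator that binds CBP and p300, gave 10.83, 11.26 and 11.16 on the arrays DN 1 to 3 and 7.19, 6.89 and 6.95 on CD4 1 to 3. It was high on all DN arrays, with a difference of 4.07 ± 0.14 (adjusted p = 0.000291). Litaf, a protein of late endosomes, differed by 3.26 ± 0.27 (adjusted p = 0.00468), Unc93b1, the escort of endosomal Toll-like receptors, by 2.13 ± 0.08 (adjusted p = 0.000405), Plek, a substrate of protein kinase C, by 2.52 ± 0.13 (adjusted p = 0.00117), and Cyp4f18, a cytochrome that hydroxylates leukotriene B4, by 2.89 ± 0.18 (adjusted p = 0.00188). Unc93b1, Plek and Cyp4f18 are also expressed by B or myeloid cells, and the part of the B cell markers in these differences was not tested. Hnrnpll, a splicing regulator of CD45 in activated T cells, had log2 signals of 6.71, 6.68 and 6.76 in DN 1 to 3 and 9.03, 9.09 and 8.74 in CD4 1 to 3. It was lower on all DN arrays, at -2.23 ± 0.10 (adjusted p = 0.000716). Rnf19a, a ubiquitin ligase, was lower, at -2.34 ± 0.07 (adjusted p = 0.000174), and Smox, the spermine oxidase, at -1.77 ± 0.10 (adjusted p = 0.00148).

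The consistency between replicate 1 and replicates 2 and 3 was read from the 2 array series apart. Within replicates 2 and 3, 5006 probes (24.8%) were called, 2311 higher and 2695 lower, from arrays that differ little from each other. DN 1 minus CD4 1, which took no part in those calls, had the same sign in 81.9% of the 5006, against 59.1% of the 15202 probes not called and 64.7% of all. The agreement grew with size. It was 77.8% for the 3487 probes with a difference under 0.5 in size, 87.1% for the 988 from 0.5 to 1, 98.2% for the 386 from 1 to 2 and 100% for the 145 of 2 or more. The difference in replicate 1 was typically smaller, with a median ratio of 0.661 over the 5006 probes and 0.845 over the 145. These probes were chosen by their difference in replicates 2 and 3, which by itself favours a smaller value in replicate 1. Over the 1009 probes called over 6 arrays, where replicate 1 took part in the choice, the median ratio was 0.948. Across all probes the 2 differences correlated at 0.796 (Pearson) and 0.471 (Spearman), as a description over probes that share their arrays.

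The test of the difference between the array series called 1545 probes (7.65%), 755 of them with opposite signs, and its spread comes from replicates 2 and 3. With median scaling limma made 0 such calls, though 3038 probes had an unadjusted p under 0.05, and 281 on the deposited value table. Among the 1009 probes called over 6 arrays 149 were called in this test. Opposite signs with a size of at least 0.5 on both sides, and a call in replicates 2 and 3, were found for 19 probes. Pik3r4, a subunit of the phosphoinositide 3-kinase complex of autophagy, stood at 6.56, 9.60 and 9.70 in DN 1 to 3 and at 9.37, 8.67 and 8.97 in CD4 1 to 3. DN 1 alone was low, and the difference was -2.81 in replicate 1 and 0.83 in replicates 2 and 3. A second probe of Pik3r4 did not show this, with 7.74 in DN 1 and 7.48 in CD4 1 and a difference of 0.11 over the 6 arrays (adjusted p = 0.942). Gna13, a G protein that confines B cells to germinal centres, gave 9.97, 7.15 and 7.37 on the arrays DN 1 to 3 and 8.63, 7.83 and 8.08 on CD4 1 to 3. Here DN 1 was the highest array, and the difference was 1.34 in replicate 1 and -0.69 in replicates 2 and 3. Nr4a1, an immediate early nuclear receptor, had log2 signals of 8.98, 7.19 and 7.15 in DN 1 to 3 and 7.97, 7.83 and 7.90 in CD4 1 to 3. Its difference was 1.01 in replicate 1 and -0.69 in replicates 2 and 3, while its relative Nr4a2 differed by 2.23 in replicate 1 and 2.00 in replicates 2 and 3.

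**Figure D5:**
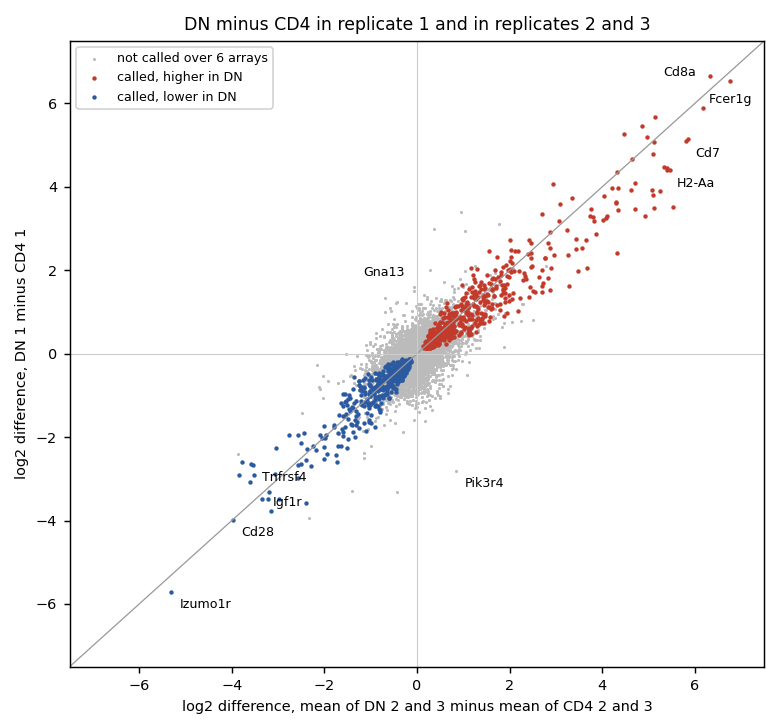
DN minus CD4 on the log2 scale for each of 20208 probes, in replicates 2 and 3 (horizontal axis) and in replicate 1 (vertical axis), with probes called over the 6 arrays in red (higher in DN) and blue (lower) and the others in grey. The grey line marks equal differences; the probes called lie in the upper right and lower left, and the probe of Pik3r4 that stands for the gene lies far off the line.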

How the data were processed

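RNA of sorted Peyer's patch T cells was hybridised with Cy5 to 12 one-colour mouse arrays, 3 for each of 4 fractions, and 6 arrays enter the tests. Per the file headers, each deposited array file gives spot and surrounding intensities as medians at 635 nm, with no normalisation. The deposited value table holds further processed intensity values, whose processing is not given in the sources used here; it set detection (a probe is detected where the table lists it) and served as an alternative. Spot medians were background-corrected with normexp (offset 50), set on a log2 scale from the deposited intensities, and quantile-normalised over the 12 arrays. The 6 DN and CD4 arrays were fitted with limma 3.58.1 in R 4.3.3 (lmFit and eBayes, two-sided, no block), with Benjamini-Hochberg adjustment over 20208 probes and a threshold of 0.05. Figures were drawn with Python 3.11.15 and matplotlib 3.10.9.

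Per the platform annotation 20690 probes have 1 symbol, 2783 have none and 0 have several; the probe with the highest mean stood for a symbol. Genes were named if they were sort or T cell genes, among the 15 highest or 15 lowest differences called, up to 4 called members of a list in each direction, the most different member of a list without calls, class II or B cell genes, or among 8 genes of opposite sign in replicate 1; a selection of these is described, and exceptions are marked. Members and the 78 lists were chosen with earlier results of these data known, and Fcmr was taken out of the granule list after its values were seen. The fit was also run on simulated data with independent noise on each array. Those data do not hold the difference between array series seen here, so the run does not show the error rate under it. As a pairing check, deviations from the fraction means correlated at 0.737, 0.617 and 0.667 between DN and CD4 arrays of the same number, and at 0.63 and 0.633 between replicates 2 and 3 across fractions. The gap between replicate 1 and the others governs these deviations, so the check can hardly tell whether replicates 2 and 3 pair by number. Alternatives were the replicate block, the array series as a block, replicates 2 and 3 averaged or alone, other arrays in the fit, the value table, other scalings, backgrounds and filters, and leaving out each array.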

Additional observations from a re-analysis of the deposited data

Results flagged for a closer look

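The difference between DN and CD4 was called in replicates 2 and 3 and had the opposite sign in replicate 1, with a size of at least 0.5 on both sides, for 15 genes with a symbol that is no clone name, of which the 8 with the widest gap are given. They were chosen for this gap, so that a test of it would restate the choice, and none is given. DN minus CD4 in replicates 2 and 3 exceeded that in replicate 1 by 3.64 for Pik3r4, by 1.62 for Herc1, which encodes a large ubiquitin ligase, by 1.58 for St8sia4, a polysialic acid synthase, and by 1.49 for Fyco1, an adaptor of autophagosome transport. The gap was -2.04 for Gna13, -1.70 for Nr4a1, -1.58 for Emb, which encodes the adhesion protein embigin, and -1.34 for Ube2s, a ubiquitin-conjugating enzyme. Replicate 1 is a single array in each fraction. The values rest on 1 probe a gene. Second probes of Pik3r4, Herc1 and Ube2s differed over the 6 arrays by 0.11, 0.02 and -0.16 (adjusted p = 0.942, 0.81 and 0.539, limma) and showed no gap of this size. Those of Herc1 and Ube2s were dim, at 5.795 to 5.87 and 6.00 to 6.41 on the 6 arrays. Probes so near the low end could hardly show such a gap, so nothing is read from them.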

How the results depend on the processing

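Against 1009 probes called over the 6 arrays, 452 were called with all 12 arrays in the fit, 2063 with 10 arrays, 1868 with the replicate block, 3583 when array series was the block, 5006 in replicates 2 and 3 alone, 25 with these averaged to 1 replicate and 20 with the local background subtracted, and leaving out 1 array gave 347 to 1376. The arrays 2 and 3 carried this range: 347, 348, 393 and 392 were called with DN 2, DN 3, CD4 2 and CD4 3 left out in turn, against 1280 and 1376 with DN 1 and CD4 1 left out. The fit with 10 arrays was made without those labelled CD8 1 and γδ 1, which went against their labels in earlier results of these data. The share of calls higher in DN was 53.9% and became 38.7% with all 12 arrays, 63.9% on the value table, 60% with replicates 2 and 3 averaged or with the local background subtracted, and stayed between 46.2% and 50.3% with the replicate block, the series block, 10 arrays, replicates 2 and 3 alone or median scaling. The median of all probes was -0.01, and 0.19 in the test between array series on the value table. The count in replicates 2 and 3 fell to 2840 with median scaling, and the test between array series called 281 on the value table and 0 with median scaling, against 1545. The median size of the differences called was 0.70 and became 1.53 on the value table. The causes were not tested.

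Of the genes named here, 161 without Ebf1 were followed through these settings, and 138 of them were called. The call was kept by 57 with all 12 arrays, 14 with replicates 2 and 3 averaged, 15 with the local background subtracted, 136 on the value table, 135 with median scaling, 137 with the replicate block and 119 in all 6 runs that left out 1 array. The block ended the call of Cd40lg and added those of Cd3g, Nfkb2, Cxcr5 and Btg3; it changed no other call of a named gene. Signs turned, mostly in genes not called. With replicates 2 and 3 averaged the difference was 0.32 for Gna13, 0.16 for Nr4a1, -0.15 for Herc1, 0.23 for Emb, -0.041 for Fyco1 and 0.040 for Ube2s, and in replicates 2 and 3 alone 0.83 for Pik3r4. With the local background subtracted it was 0.23 for Cd3d, 0.16 for Ciita, 1.10 for Atp5g2, 0.078 for Pik3r4, 0.045 for Gna13, 0.64 for Nr4a1, -0.71 for St8sia4, 0.076 for Emb and 0.036 for Ube2s, of which Atp5g2 alone was called in the 6 arrays. Leaving out 1 array gave -0.12 to 0.23 for Cd3e, -0.92 to 0.65 for Pik3r4, -0.92 to 0.49 for Gna13, -0.73 to 0.19 for Nr4a1, -0.023 to 0.40 for Herc1, -0.47 to 0.22 for Emb and -0.61 to 0.053 for Ube2s. Spots near the blanks limit what can be read of low genes.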
